A study of Mus musculus with 20 samples.

Results

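The 10 genes described here encode inflammatory mediators and the feedback genes of NF-kB signalling: Il1b, Il1rn, Il1r2, Tnf, Cxcl2, Ptgs2, Nfkb2, Nfkbia, Nfkbiz and Tnfaip3. They were chosen by gene symbol, with earlier results of these data known. Every probe set of the array that the platform annotation gives to one of these symbols alone was kept, 21 probe sets in all. The array holds 45101 probe sets, of which 34945 carry 1 gene symbol, for 18193 genes. Expression was measured in 10 blood cell types of female C57Bl/6 mice aged 12 to 14 weeks, with 2 arrays per type and, per the labels, 4 pooled samples behind each array. The groups were monocytes, granulocytes, long-term hematopoietic stem cells (LT-HSC), nucleated erythrocytes, activated CD4+ and CD8+ T cells, naive CD4+ and CD8+ T cells, NK cells and B cells, all purified by flow cytometry. RNA from 25000 to 50000 sorted cells was amplified by repeated in vitro transcription before hybridisation. The activated T cells are labelled as activated with an LPS treatment, and the title of the first naive CD8 array reads "CD48+" where its source reads CD8+. No other cell type carries a treatment in the labels.

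Interleukin-1 beta and TNF are secreted proteins that bind receptors on many cells and lead to release of NF-kB, a family of dimeric transcription factors held in the cytoplasm by inhibitory IkB proteins. NF-kB then raises transcription of cytokines and chemokines and also of its own brakes, among them the IkB protein encoded by Nfkbia and the ubiquitin-editing enzyme encoded by Tnfaip3. Il1rn and Il1r2 act outside the cell, as a receptor antagonist and as a decoy receptor for interleukin-1. Monocytes and neutrophils are known as rapid sources of these mediators.

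The sequences before the transcription starts of 5 of the genes are shown because NF-kB is known to act on its own feedback genes through kappa-B sites near their starts. The RefSeq promoter table (GRCm38.p6) held 14 windows, each of 250 bases before to 50 bases after a start, for 9 of the 10 genes, and none for Nfkbiz. The windows were searched on both strands for the kappa-B consensus, which was found in 6 of the 14 windows (42.9%) and in 1480 of all 32851 windows (4.51%). The 14 windows include overlapping windows of Nfkb2 and of Il1rn, so they are not independent. Capitals mark kappa-B matches, and the 250 bases before the start are printed 5′ to 3′ on the strand of the gene. The first 4 sequences hold a match, and Il1b is shown as a cytokine gene whose window holds none.
Cxcl2: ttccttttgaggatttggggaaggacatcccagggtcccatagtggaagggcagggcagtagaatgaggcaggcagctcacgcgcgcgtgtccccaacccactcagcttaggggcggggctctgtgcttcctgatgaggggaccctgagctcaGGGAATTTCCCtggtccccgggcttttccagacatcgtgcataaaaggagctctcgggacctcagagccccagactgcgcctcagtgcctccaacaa
Nfkbia: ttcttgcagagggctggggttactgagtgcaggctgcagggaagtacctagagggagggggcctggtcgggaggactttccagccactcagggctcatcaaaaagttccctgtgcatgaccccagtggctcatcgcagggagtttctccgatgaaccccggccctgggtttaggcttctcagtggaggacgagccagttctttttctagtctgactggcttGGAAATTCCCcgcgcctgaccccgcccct
Tnfaip3: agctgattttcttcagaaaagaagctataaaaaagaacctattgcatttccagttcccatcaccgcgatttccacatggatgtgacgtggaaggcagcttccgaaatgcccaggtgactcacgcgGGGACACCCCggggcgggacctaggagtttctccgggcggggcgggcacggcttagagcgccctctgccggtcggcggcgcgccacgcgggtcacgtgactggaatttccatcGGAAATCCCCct
Nfkb2: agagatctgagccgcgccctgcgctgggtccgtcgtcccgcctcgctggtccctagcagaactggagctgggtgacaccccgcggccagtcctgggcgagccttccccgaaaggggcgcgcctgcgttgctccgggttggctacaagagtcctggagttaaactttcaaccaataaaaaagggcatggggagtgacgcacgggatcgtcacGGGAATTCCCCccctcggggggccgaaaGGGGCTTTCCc
Il1b: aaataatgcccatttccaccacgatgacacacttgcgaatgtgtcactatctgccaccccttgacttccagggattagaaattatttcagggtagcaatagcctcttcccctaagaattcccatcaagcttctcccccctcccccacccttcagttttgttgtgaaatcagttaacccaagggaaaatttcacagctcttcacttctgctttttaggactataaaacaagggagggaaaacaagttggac

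The Cxcl2 sequence lies at chr5:90903649-90903898 on the plus strand, and its overlapping matches on both strands begin 97 and 96 bases before the start. Nfkbia lies at chr12:55492648-55492897 on the minus strand with 1 match 29 bases before the start. The Tnfaip3 sequence, chr10:19015411-19015660 on the minus strand, has matches that begin 125 and 12 bases before the start. In the Nfkb2 sequence, chr19:46304487-46304736 on the plus strand, overlapping matches begin 39 and 38 bases before the start and a further one 11 bases before it. The Il1b sequence, chr2:129371140-129371389 on the minus strand, holds TATAAA 31 bases before the start, a run of letters present on either strand in 13.6% of all windows. The windows of Tnf, Ptgs2, Il1r2 and Il1rn held no kappa-B match either. A match describes the letters of these windows and was not tied to binding or expression here.

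Values are log2 GCRMA expression as deposited, and values below 5 lie near the background of these arrays, whose medians ran between 3.08 and 3.27. Each gene is represented by its probe set with the highest mean, and other probe sets are given for some comparisons. Counts of called genes use the representative probe set alone. Differences were tested with limma over 9810 genes that exceeded 5 in at least 2 arrays, and a gene is called where the Benjamini-Hochberg adjusted p is below 0.05 and the log2 difference is at least 1 in size. Nothing in the labels says that the 2 arrays of a type came from separate animals, so the p-values measure only the spread between these arrays.

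Several arrays stood apart. The monocyte arrays correlated at 0.945 over the tested genes, the lowest of the 10 types (highest 0.988, B cells), and 2415 genes (24.6%) differed more than 2-fold between them. Of the 9 measured monocyte markers, 8 exceeded 5 in both monocyte arrays and 6 in both granulocyte arrays. Among them, Cd14 had 10.24 and 9.22 in the monocyte arrays against 2.12 and 1.82 in the granulocyte arrays, whereas Ccr2 had 5.11 and 6.07 in the monocyte arrays against 5.06 and 5.26 in the granulocyte arrays. Ccr2 was highest in the NK arrays (9.37 and 9.63). Cx3cr1 passed 5 only narrowly in the monocyte arrays (5.15 and 5.57), beside 5.17 and 5.28 in the erythrocyte arrays. F13a1 was lower in the monocyte arrays (3.24 and 4.70) than in the granulocyte arrays (9.15 and 6.61), so the markers of the monocyte label were only partly present. Of the 11 measured neutrophil markers, 11 and 10 exceeded 5 in the monocyte arrays, 11 in each granulocyte array and 10 in each erythrocyte array. Their summed level (log2) was 17.96 to 18.04 in monocyte arrays, 15.76 to 17.04 in erythrocyte arrays and 18.58 to 18.81 in granulocyte arrays. Single markers went both ways between monocyte and granulocyte arrays. Csf3r (13.71 and 13.50 against 11.44 and 11.30), Cxcr2 and Clec4d were higher in the monocyte arrays. S100a8, Mmp8, Mmp9, Ltf, Camp, Ngp and Itgb2l were lower there, and S100a9 overlapped. The second naive CD4 array also held neutrophil markers, 5 of 11 against 1 of 11 in the first array, with summed levels of 12.01 and 6.91. The part of these markers in the results below was not tested.

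**Figure D1:**
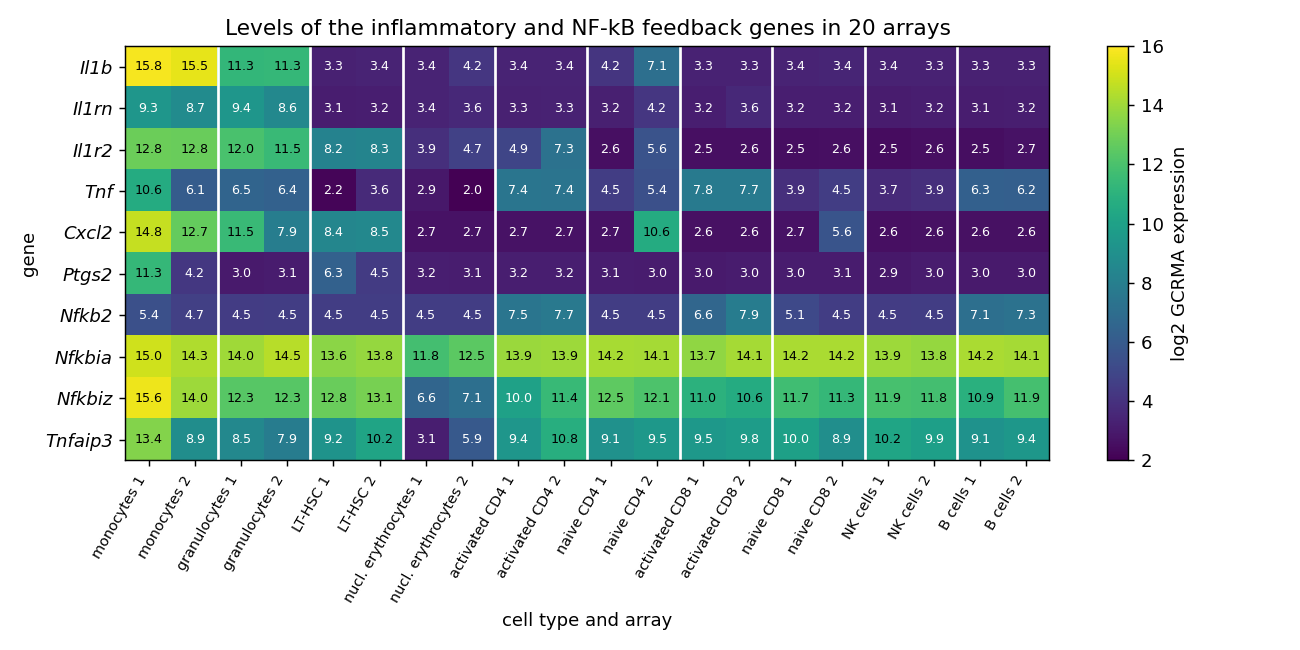
Heat map of log2 GCRMA expression of the 10 genes (rows, representative probe set) in each of the 20 arrays (columns, 2 per cell type), with the value printed in each cell. Il1b, Il1rn and Il1r2 are highest in the 4 monocyte and granulocyte arrays, Nfkbia is high in every array, and Ptgs2, Tnf and Tnfaip3 differ by more than 4 log2 units between the monocyte arrays.

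Il1b, the gene of the secreted cytokine interleukin-1 beta, was high in both myeloid types and near background in nearly all other arrays. Its single probe set (1449399_a_at) had 15.80 and 15.49 in the monocyte arrays and 11.28 and 11.34 in the granulocyte arrays. Over the 16 arrays of the 8 other types it ran between 3.30 and 7.14 with a median of 3.37, and only the second naive CD4 array, with 7.14, exceeded 5. Il1b was higher by 11.95 ± 0.47 (log2 difference ± SE) in monocytes than in the mean of the 8 non-myeloid types (limma adjusted p = 1.81e-10). It was higher by 7.61 ± 0.47 in granulocytes than in the same types (adjusted p = 1.45e-08) and by 4.33 ± 0.63 in monocytes than in granulocytes (adjusted p = 0.000238). In bulk samples such as these, fewer expressing cells and less RNA per cell cannot be told apart.

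Il1rn, the gene of the interleukin-1 receptor antagonist, separated both myeloid types from all others and did not separate them from each other. Probe set 1425663_at had 9.34 and 8.73 in the monocyte arrays, 9.36 and 8.56 in the granulocyte arrays and between 3.08 and 4.24 in the 16 other arrays. The monocyte and granulocyte values overlapped, and their difference was 0.07 ± 0.33 (adjusted p = 0.932). Il1rn was higher by 5.72 ± 0.25 in monocytes (adjusted p = 4.83e-10) and by 5.64 ± 0.25 in granulocytes (adjusted p = 5.28e-10) than in the non-myeloid types. It passed the filter on low values only through the 4 myeloid arrays, those in which it was called higher. Its probe set 1451798_at had 9.65 and 9.49 in monocyte arrays, 10.00 and 9.50 in granulocyte arrays and at most 2.71 elsewhere. The remaining probe set, 1423017_a_at, did not exceed 2.60 in any array. The ratio of agonist to antagonist cannot be read from these values, since levels of different probe sets are not on 1 scale.

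Il1r2, the gene of the decoy receptor that binds interleukin-1 without signalling, was high in the myeloid types and also present in the stem cells. It had 12.85 and 12.80 in monocyte arrays, 12.00 and 11.47 in granulocyte arrays, 8.22 and 8.31 in LT-HSC arrays and 4.90 and 7.26 in the activated CD4 arrays. All other arrays lay at or below 4.71 except the second naive CD4 array, at 5.58. The step between granulocytes and LT-HSC, 3.47 ± 0.79, passed the test (adjusted p = 0.00193), and so did that between LT-HSC and activated CD4 cells (2.19 ± 0.79, adjusted p = 0.032). The step between monocytes and granulocytes, 1.09 ± 0.79, did not (adjusted p = 0.353). Against the non-myeloid types Il1r2 was higher by 8.70 ± 0.59 in monocytes and by 7.61 ± 0.59 in granulocytes (adjusted p = 3.06e-08 and 1.23e-07).

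Cxcl2, a chemokine gene whose product attracts neutrophils, was high in the myeloid types but varied widely between arrays of a type. It had 14.77 and 12.67 in monocyte arrays, 11.51 and 7.91 in granulocyte arrays and 8.40 and 8.52 in LT-HSC arrays. The naive CD4 arrays had 2.67 and 10.63, the naive CD8 arrays 2.70 and 5.61, and the remaining 10 arrays lay between 2.59 and 2.70. The high naive CD4 value thus exceeded 1 of the granulocyte arrays, and the myeloid and non-myeloid values overlapped. Cxcl2 was higher by 9.66 ± 1.39 in monocytes (adjusted p = 3.4e-05) and by 5.65 ± 1.39 in granulocytes (adjusted p = 0.00285) than in the non-myeloid types. Without the first granulocyte array the granulocyte difference was 3.85 and no longer passed (adjusted p = 0.0987). The difference between monocytes and granulocytes, 4.01 ± 1.85, did not pass (adjusted p = 0.133), and it passed with an adjusted p of 0.0138 when either naive CD4 array was left out of the fit.

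Tnf, the gene of tumour necrosis factor, exceeded 6 in lymphocyte as well as myeloid arrays. It had 10.59 and 6.09 in the monocyte arrays, 7.75 and 7.74 in activated CD8, 7.42 and 7.37 in activated CD4, 6.53 and 6.36 in granulocyte and 6.29 and 6.22 in B cell arrays. The second monocyte array therefore lay below both arrays of each of these types. In the remaining arrays Tnf ran between 2.04 and 5.41, with the lowest mean in nucleated erythrocytes (2.92 and 2.04). No step between neighbouring cell types in the order of Tnf levels passed the test. Tnf was higher by 3.37 ± 0.74 in monocytes than in the non-myeloid types (adjusted p = 0.00108), and by 1.12 without the first monocyte array (adjusted p = 0.0498). In granulocytes the difference was 1.48 ± 0.74 (adjusted p = 0.092), and it passed with an adjusted p of 0.00171 when either monocyte array was left out.

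Ptgs2, the gene of the inducible cyclooxygenase that starts prostaglandin synthesis, exceeded 5 in 1 monocyte array and 1 LT-HSC array. Probe set 1417262_at had 11.33 and 4.25 in the monocyte arrays, 2.99 and 3.06 in granulocyte arrays and 6.35 and 4.46 in LT-HSC arrays, and it lay between 2.90 and 3.18 in every other array. Probe set 1417263_at gave 7.87 and 2.71 in the same monocyte arrays. The called differences of monocytes from the non-myeloid types (4.43 ± 1.08, adjusted p = 0.00246) and from granulocytes (4.76 ± 1.44, adjusted p = 0.0262) thus rested on 1 array, and without it Ptgs2 did not pass the filter on low values and was not tested. The call against granulocytes was also lost without the first or the second granulocyte array (adjusted p = 0.107 and 0.0881).

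Counted together, 8 of the 10 genes were called higher in monocytes than in the non-myeloid types and none lower, where 19.2% of all tested genes were called higher, 36.3% lower and 55.5% either way. The median difference of the 10 genes was 4.09 and that of all tested genes -0.50. The 10 genes were chosen with earlier results of these data known, so the shares and medians here describe them and do not test them as a set. In granulocytes 5 of the 10 were higher (22.3% of all genes) and 1 lower (29.6%, and 51.8% either way), with a median of 1.39 over the 10 and -0.34 over all genes. Between monocytes and granulocytes 3 of the 10 were higher in monocytes (6.98% of all genes) and none lower (17.3%, and 24.3% either way), with medians of 2.18 and -0.13. These comparisons share arrays, and the monocyte counts were 6 without the first and 9 without the second monocyte array against the non-myeloid types, and 1 and 5 against granulocytes.

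**Figure D2:**
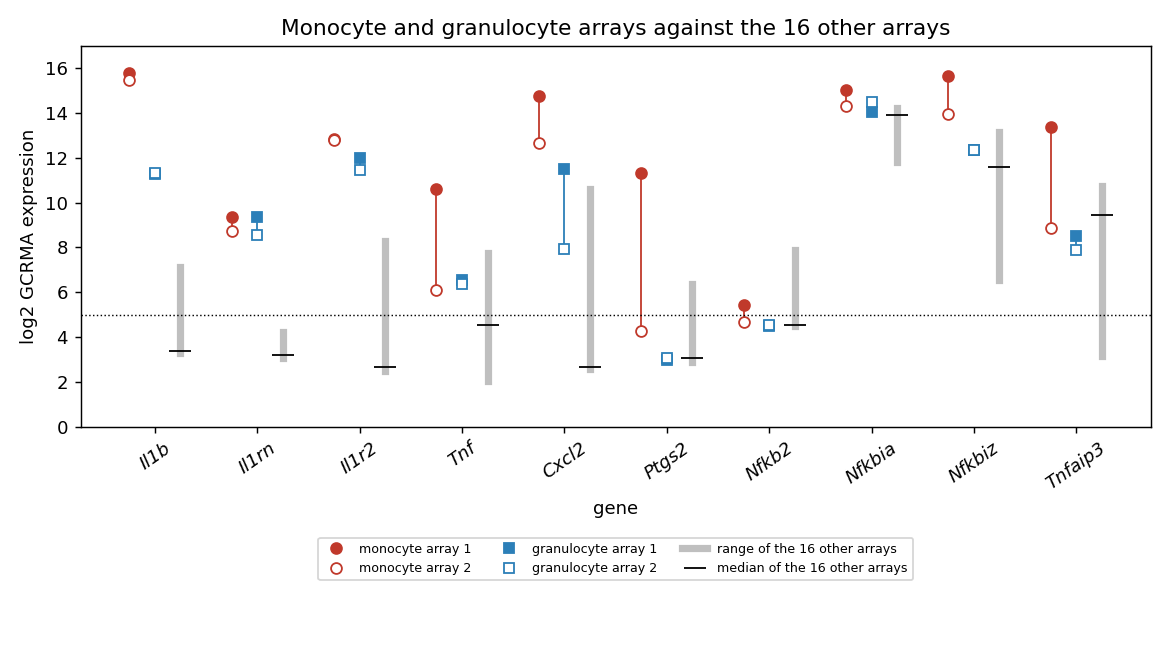
Log2 GCRMA expression of each gene in the monocyte arrays (circles, filled for array 1), the granulocyte arrays (squares, filled for array 1) and the 16 other arrays (grey bar from lowest to highest, black dash at the median), with a dotted line at 5. The red lines show the gap between monocyte arrays, which is 7.08 for Ptgs2, 4.52 for Tnfaip3 and 4.50 for Tnf but 0.31 for Il1b and 0.05 for Il1r2.

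Of the NF-kB feedback genes, Nfkbia and Nfkbiz exceeded 5 in every array and Tnfaip3 in all but 1 erythrocyte array, whereas Nfkb2 exceeded 6 only in activated T cells and B cells. Nfkbia, which encodes the inhibitor IkB alpha, had 15.01 and 14.33 in monocyte arrays and 14.03 and 14.48 in granulocyte arrays by its brightest probe set (1420088_at), and between 11.82 and 14.23 in the 16 others. Its only called step in the order of cell types was the lowest, between LT-HSC and nucleated erythrocytes (1.55 ± 0.28, adjusted p = 0.000346). The monocyte difference of 0.91 ± 0.21 (adjusted p = 0.00172) was below the size needed for a call. The probe set lies near the top of the scale, where the highest value of any probe set was 16.85.

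The other 4 Nfkbia probe sets had wider ranges, the narrowest of them from 8.86 to 15.92 (1438157_s_at), beside 11.82 to 15.01 for 1420088_at. They were higher by 2.75 to 3.62 in monocytes than in the non-myeloid types, and each was called (adjusted p between 1.75e-06 and 0.000192). Probe set 1448306_at, for example, had 14.40 and 11.38 in monocyte arrays, 11.40 and 11.10 in granulocyte arrays and 4.93 and 5.95 in the erythrocyte arrays. All 5 were lower in nucleated erythrocytes than in the other types, by sizes between 1.96 (1420088_at) and 4.88 (1448306_at). In granulocytes, 1438157_s_at (1.44), 1448306_at (1.98) and 1449731_s_at (1.28) were called higher than in the non-myeloid types, and 1420089_at (0.997) was not. In monocytes, 1420089_at (1.875) and 1438157_s_at (1.615) were called higher than in granulocytes, and 1448306_at (1.64) and 1449731_s_at (1.47) were not. The representative probe set was called in neither comparison.

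Nfkbiz, an atypical nuclear IkB protein gene that acts as a coactivator of secondary response genes, had 15.64 and 13.97 in monocyte arrays, 12.35 and 12.34 in granulocyte arrays and 12.81 and 13.14 in LT-HSC arrays by probe set 1417483_at. The lymphocyte arrays ran between 9.99 and 12.52, and the erythrocyte arrays had 6.56 and 7.11. Nfkbiz was higher by 3.75 ± 0.40 in monocytes than in the non-myeloid types (adjusted p = 2.25e-06). It was higher by 2.46 ± 0.54 in monocytes than in granulocytes (adjusted p = 0.00406), a difference that was 1.62 and did not pass without the first monocyte array (adjusted p = 0.0516). Granulocytes exceeded the non-myeloid types by 1.29 ± 0.40 (adjusted p = 0.0122), a call that was lost without either granulocyte array (adjusted p = 0.0791 and 0.0774). Probe set 1448728_a_at had 10.93 and 4.77 in monocyte arrays, at most 3.0 in granulocyte arrays and at most 1.74 in every other array.

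Tnfaip3, the gene of a deubiquitinating enzyme that ends NF-kB signalling, had 13.40 and 8.88 in monocyte arrays and 8.52 and 7.87 in granulocyte arrays. Apart from the erythrocyte arrays (3.15 and 5.90), the other arrays lay between 8.90 and 10.75. The first monocyte array was above all others, and the second lay below every array of these types and above both granulocyte arrays. The called difference of 2.15 ± 0.85 between monocytes and the non-myeloid types (adjusted p = 0.0373) rested on the first array, since without it the difference was -0.11 (adjusted p = 0.912). The other probe set, 1450829_at, did not exceed 2.05 in any array.

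**Figure D3:**
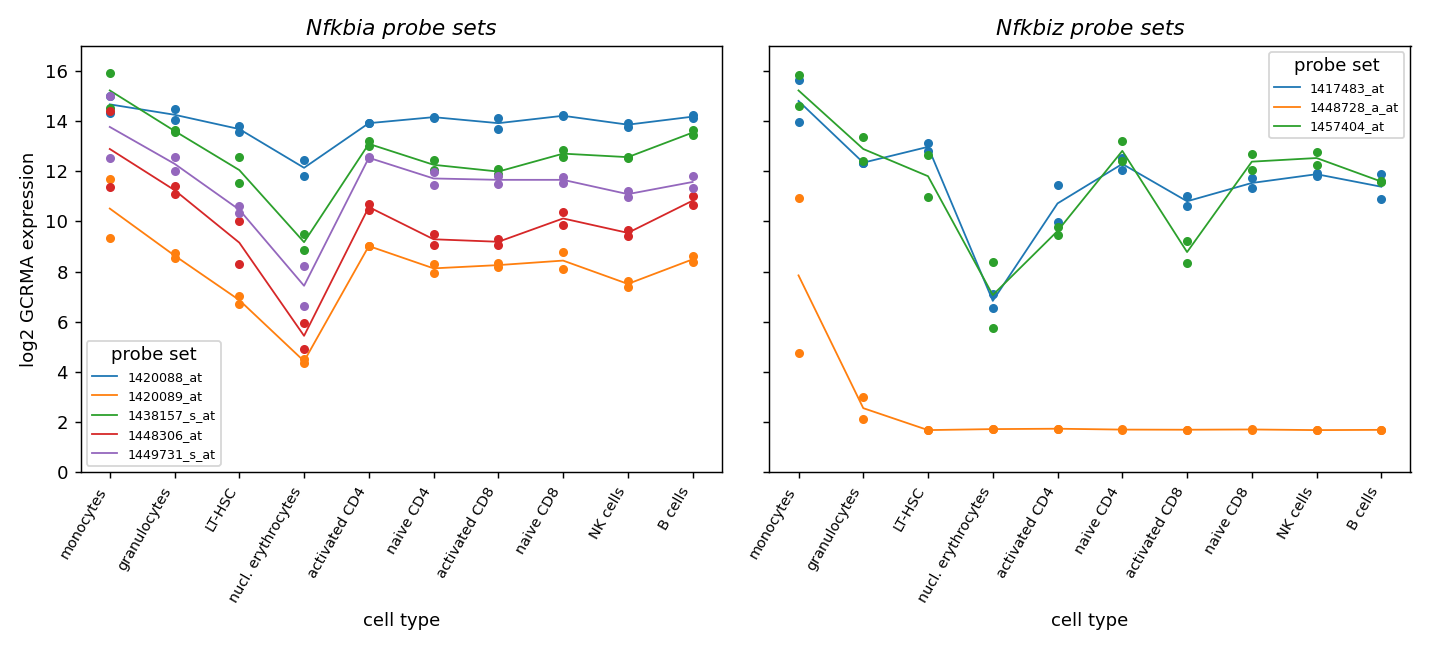
Log2 GCRMA expression of the 5 Nfkbia probe sets (left) and the 3 Nfkbiz probe sets (right) by cell type, where points are single arrays and lines join the means of 2 arrays. The brightest Nfkbia probe set lies between 13.56 and 15.01 outside nucleated erythrocytes, the other 4 have their highest mean in monocytes, and Nfkbiz probe set 1448728_a_at exceeds 5 in the first monocyte array alone.

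The spread between the monocyte arrays differed widely among the genes. The first array exceeded the second by 7.08 for Ptgs2, 4.52 for Tnfaip3 and 4.50 for Tnf, and only 0.0408%, 0.428% and 0.459% of the tested genes were further apart. For Cxcl2 the gap was 2.10 and for Nfkbiz 1.67, which 6.41% and 10.6% of genes exceeded. By their representative probe sets, Il1b (0.31), Il1rn (0.61), Il1r2 (0.05), Nfkb2 (0.76) and Nfkbia (0.68) were not unusual, with between 33.9% and 84.8% of genes further apart and a median gap of 0.47. The other Nfkbia probe sets had wider gaps. They had 14.40 and 11.38 (1448306_at), 15.00 and 12.54 (1449731_s_at), 11.70 and 9.33 (1420089_at) and 15.92 and 14.53 (1438157_s_at) in the monocyte arrays. Nfkbiz probe set 1448728_a_at had 10.93 and 4.77. The gap of these 2 genes thus depended on the probe set.

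Immediate early genes encode transcription factors and regulators induced within minutes of a stimulus. On average they were higher in the first monocyte array than in the second, but not each of them was. Their mean over 16 genes was 12.11 in the first and 9.55 in the second monocyte array, with 16 and 13 of them above 5. Fosb had 11.61 and 2.97, Egr3 10.34 and 2.82, Egr1 14.42 and 9.74 and Gadd45b 13.26 and 8.95. Others were close in both arrays, with Fos at 14.90 and 14.48, Ier5 at 14.74 and 14.33 and Jund at 9.88 and 9.32. Zfp36l1 was slightly lower in the first array (12.92 and 13.05). These genes were named after their values were seen. In the granulocyte arrays the same mean was 7.63 and 7.10, and in the LT-HSC arrays 9.86 and 9.92. The neutrophil marker sum was 18.04 and 17.96 in the monocyte arrays, a sum made mostly of its brightest genes, while single markers differed between these arrays, among them Mmp8 (7.11 and 11.48), Ltf (7.72 and 8.97) and Camp (5.09 and 3.83). Of the monocyte markers, Ace had 6.26 and 9.49 and Fn1 7.15 and 9.38. The part of the immediate early genes and of these markers in the gap was not tested.

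Genes of the same pathways were also higher in the monocyte arrays. Of the immediate early genes, 10 of 15 tested were called higher in monocytes than in the non-myeloid types and 0 lower (19.2% and 36.3% of all genes), with Fos higher by 6.10 and Ier3 by 5.24. Without the first monocyte array 9 were higher and 2 lower, and without the second 14 were higher. Against granulocytes 12 of 15 were higher (6.98% of all genes), and 7 and 13 were higher without the first and the second monocyte array. Among further negative feedback genes of NF-kB signalling, 8 of 13 were higher and 1 lower against the non-myeloid types, beside the same 19.2% and 36.3%, led by Dusp1, a phosphatase of stress kinases (6.89 ± 0.44, adjusted p = 1.86e-08) and Zfp36, which destabilises cytokine mRNAs (4.91 ± 0.47, adjusted p = 6.9e-07). The median was 2.97 for the immediate early genes and 1.67 for the feedback genes, beside -0.50 for all genes.

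Most tested genes of interleukin-1 processing and of lipid mediators were called higher as well, where 19.2% of all tested genes were called higher and 36.3% lower. The filter on low values can be passed through the monocyte arrays alone, in these lists as in all genes. Of 8 inflammasome and processing genes 6 were higher in monocytes and 1 lower, with the sensor gene Nlrp3 higher by 4.79 ± 0.23 (adjusted p = 1.2e-09) and the adaptor gene Pycard lower, with a difference of -2.06 ± 0.23 (adjusted p = 3.07e-06). Of 6 tested prostaglandin and leukotriene genes (10 measured) 5 were higher and 1 lower, with Alox5, the enzyme that starts leukotriene synthesis, higher by 8.76 ± 0.27. Of 12 interleukin-1 family receptor genes 5 were higher and 2 lower, among them the signalling receptor Il1r1, which had a difference of -1.18 ± 0.32 (adjusted p = 0.00513), beside the higher accessory chain Il1rap (5.83 ± 0.34). Of 4 IkB genes 2 were higher, Bcl3 by 2.99 and Nfkbid by 2.41.

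Among the secreted mediators outside the 10 genes, 6 of 14 measured cytokine genes and 7 of 11 measured chemokine genes passed the filter on low values and were tested. Of the 6 cytokine genes 4 were higher in monocytes and 1 lower, with the growth factor gene Csf1 higher by 7.75 ± 0.37 and the cytokine gene Osm by 4.72 ± 0.41. Of 7 chemokine genes 4 were higher (2 without the first monocyte array), led by Ccl6 (9.83 ± 0.70) and Ccl9 (5.39 ± 0.58). Of 11 TNF receptor and adaptor genes 3 were higher and 3 lower, near the shares over all genes (19.2% and 36.3%), with both TNF receptor genes Tnfrsf1a (4.64 ± 0.41) and Tnfrsf1b (4.33 ± 0.49) higher and the adaptor gene Traf1 lower (-3.61 ± 0.33). Of 8 IKK and upstream kinase genes 2 were higher and 2 lower, also near those shares, with Map3k8 at 4.28 ± 0.44 and Ikbke at -4.02 ± 0.21. None of the 3 tested NF-kB subunit genes was called by limma, and 1 had an unadjusted p below 0.05.

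Nfkb2, which encodes the precursor of a subunit of the non-canonical NF-kB pathway, was highest in activated T cells and B cells. Probe set 1425902_a_at had 7.45 and 7.68 in activated CD4, 6.63 and 7.87 in activated CD8 and 7.14 and 7.29 in B cell arrays. It had 5.43 and 4.67 in monocyte arrays, 5.09 and 4.53 in naive CD8 arrays and between 4.49 and 4.54 in all others. No array of the first 3 types overlapped any of the others, and among neighbours in the order only the step between B cells and monocytes was called (2.17 ± 0.35, adjusted p = 0.000138). The second probe set, 1429128_x_at, exceeded 5 in 1 array. In granulocytes Nfkb2 was lower than in the non-myeloid types, with a difference of -1.10 ± 0.26 (adjusted p = 0.00237), where the granulocyte values of 4.51 and 4.53 lie near background. The size fell below that needed for a call on the mean of its probe sets (-0.66) and with quantile normalization (-0.96).

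The activation comparison asks what differs between activated and naive T cells of the same lineage. Nfkb2 was higher in activated than in naive CD4 cells by 3.04 ± 0.35 (adjusted p = 2.76e-05) and in activated than in naive CD8 cells by 2.44 ± 0.35 (adjusted p = 0.000187). Of the 10 genes, 1 was called higher (14.9% of all genes) and 2 lower (18.2%, and 33.1% either way) in CD4 cells. In CD8 cells 2 were higher (14.4%) and 0 lower (15.7%, and 30.0% either way). The medians of the 10 genes were -0.07 in CD4 and -0.01 in CD8 cells, beside 0.02 and -0.02 for all genes.

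Tnf was the second gene with higher levels in activated cells. It had 7.75 and 7.74 in activated CD8 arrays against 3.86 and 4.53 in naive CD8 arrays, a difference of 3.55 ± 0.98 (adjusted p = 0.0131). In CD4 cells it had 7.42 and 7.37 in activated against 4.53 and 5.41 in naive arrays, a difference of 2.42 ± 0.98 that did not pass (adjusted p = 0.0693). The groups did not overlap in either lineage. The CD4 difference passed without either monocyte array (adjusted p = 0.00094 and 0.000942), and the CD8 call was lost without the first naive CD8 array or either activated CD8 array (adjusted p = 0.0801, 0.0552 and 0.0608).

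Il1b and Nfkbiz were called lower in activated CD4 cells. Il1b had 3.40 and 3.41 in activated against 4.15 and 7.14 in naive CD4 arrays, a difference of -2.24 ± 0.63 (adjusted p = 0.0133). Without the second naive CD4 array, the one with neutrophil markers, the difference was -0.75 and did not pass (adjusted p = 0.0876). It also failed without the first or the second activated CD4 array (adjusted p = 0.0626 and 0.0539). Nfkbiz had 9.99 and 11.45 in activated against 12.52 and 12.07 in naive CD4 arrays, a difference of -1.58 ± 0.54 (adjusted p = 0.0339). Without the first activated CD4 array the Nfkbiz difference was -0.84 and did not pass (adjusted p = 0.343), and the call was also lost without the first or the second naive CD4 array (adjusted p = 0.161 and 0.0637), with no filter on dim genes (0.0773), on the mean of its probe sets (0.0896) and in the fit of the compared groups alone (0.0906).

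Nfkbiz probe set 1457404_at was called lower in activated cells of both lineages. It had 9.46 and 9.78 in activated against 12.41 and 13.22 in naive CD4 arrays (-3.20 ± 0.76, adjusted p = 0.00525) and 9.21 and 8.35 in activated against 12.71 and 12.06 in naive CD8 arrays (-3.61 ± 0.76, adjusted p = 0.00273). The groups did not overlap in either lineage. The representative probe set had a CD8 difference of -0.73 ± 0.54 (adjusted p = 0.341), so the CD8 result differed between probe sets of the gene.

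Il1r2 had 4.90 and 7.26 in activated against 2.60 and 5.58 in naive CD4 arrays, values that overlap (1.99 ± 0.79, adjusted p = 0.0633). Without the second naive CD4 array the difference was 3.48 and passed (adjusted p = 0.00228). In CD8 cells Il1r2 lay between 2.53 and 2.58 in all 4 arrays. Nfkbia and Tnfaip3 were not called in either lineage, with differences of -0.24 ± 0.28 and 0.77 ± 1.13 in CD4 and -0.29 ± 0.28 and 0.18 ± 1.13 in CD8 cells. The other Nfkbia probe sets were not called either, with differences from 0.825 to 1.285 in CD4 and from -0.93 to 0 in CD8 cells. None of the 10 genes was called for a difference of the activation effect between CD8 and CD4 cells, where 0.663% of all genes were. The smallest adjusted p among them was 0.67 for Il1b (unadjusted 0.0319), the only one of the 10 with an unadjusted p below 0.05, with an effect difference of 2.15 ± 0.90.

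**Figure D4:**
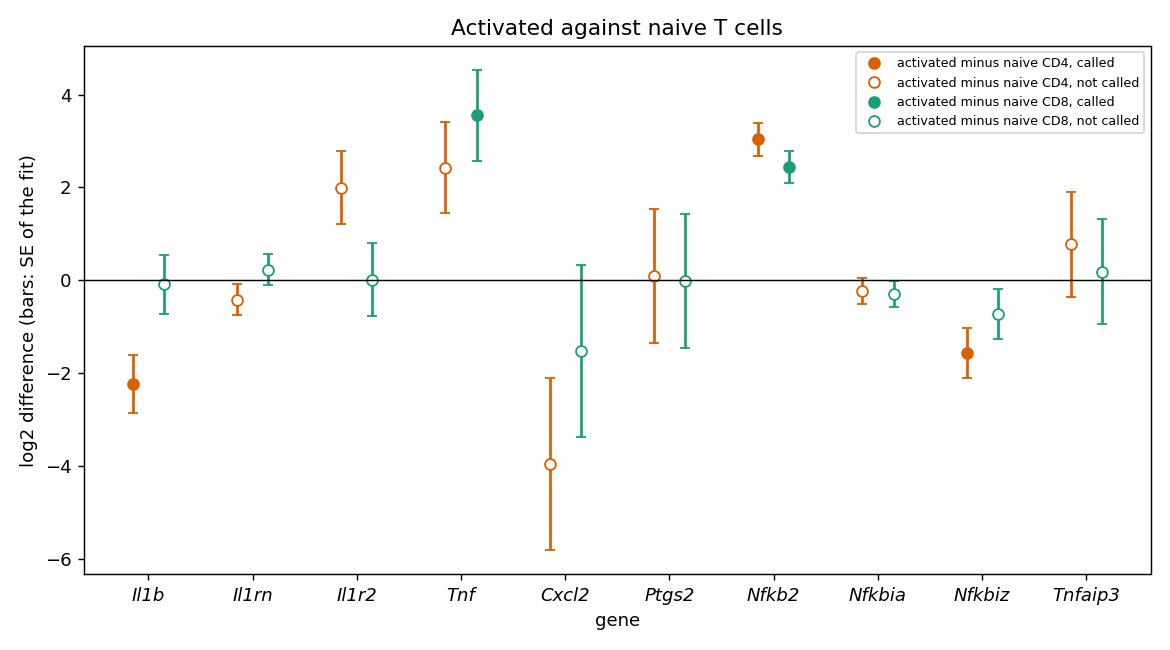
Log2 difference of activated minus naive T cells for each gene, in CD4 cells (orange) and CD8 cells (green), with bars of 1 standard error of the limma fit and filled points for called differences. Nfkb2 is higher in both lineages (3.04 and 2.44), Tnf is called in CD8 cells alone, and Il1b and Nfkbiz are called lower in CD4 cells, calls that leaving out single arrays ends.

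Around these genes, Rel, the subunit gene of the canonical pathway in lymphocytes, was higher in activated than naive cells by 2.48 ± 0.29 in CD4 and 2.31 ± 0.29 in CD8 cells (adjusted p = 2.95e-05 and 6.6e-05), 1 of 3 tested subunit genes in each. The highest Rel mean of any cell type was 5.97, in activated CD4 cells, so these differences start from values below 5 and are uncertain in size. Of all tested genes 14.9% were higher and 18.2% lower in CD4 cells, and 14.4% and 15.7% in CD8 cells. Of 4 IkB genes 3 were higher in CD4 and 2 in CD8 cells, with Nfkbib higher by 2.99 and 1.95. The cytokine genes Lif (6.11 and 4.29) and Lta (4.47 and 4.04) were also higher, while 5 of 13 feedback genes were lower and 2 higher in CD4 cells and 6 lower and 1 higher in CD8 cells. Dusp1 differed by -2.49 and -2.38. Of 7 tested chemokine genes 2 were higher and 1 lower in activated CD8 cells, with Ccl3 higher by 6.64 ± 1.19 (adjusted p = 0.000861) and Ccl4 by 5.09 ± 0.42. The activation effect on Ccl4 was larger in CD8 than in CD4 cells by 5.40 ± 0.60 (adjusted p = 0.000316).

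In B cells, Nfkb2 was the only one of the 10 genes called against the naive T cells (8.27% of all genes were called higher and 7.77% lower), higher by 2.54 ± 0.30 (adjusted p = 3.12e-05). Rel was also higher in B cells than in naive T cells, by 2.29 ± 0.25, a size that is uncertain because the naive level is low. In NK cells none of the 10 genes was called against naive T cells by limma, where 17.3% of all genes were called either way, and Il1b alone had an unadjusted p below 0.05 (0.0494).

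In LT-HSC the share of the 10 genes called higher was near that of all genes. Il1r2 was higher than the average of the 9 remaining types by 2.79 ± 0.59 (adjusted p = 0.00132) and Nfkbiz by 1.57 ± 0.40 (adjusted p = 0.00476), so 2 of the 10 were higher (18.4% of all genes) and 4 lower (21.5%, and 39.9% either way). The lower ones were Tnf (-2.81), Il1b (-2.57), Il1rn (-1.46) and Nfkb2 (-1.03), each with LT-HSC values below 5. The LT-HSC means of Il1b (3.335), Il1rn (3.145) and Nfkb2 (4.52) lay close to those of NK cells (3.34, 3.125 and 4.505). These low levels were thus not particular to LT-HSC. Cxcl2 (3.19 ± 1.38, adjusted p = 0.0661) and Ptgs2 (1.82 ± 1.08, adjusted p = 0.167) were not called although both LT-HSC arrays of Cxcl2 lay above 8. The Cxcl2 difference passed without the first naive CD4 array (2.74, adjusted p = 0.0109), without the second (3.63, adjusted p = 0.00203) and without the first granulocyte array (adjusted p = 0.0496). That of Nfkbiz was 0.38 on the mean of its probe sets (adjusted p = 0.546) and did not pass without the second LT-HSC array (adjusted p = 0.0708). The Tnf call was lost without the first LT-HSC array (adjusted p = 0.122), and the Nfkb2 difference was -0.62 on the mean of its probe sets, below the size needed for a call.

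The LT-HSC arrays held 1 of 11 neutrophil markers above 5, with summed levels of 7.63 and 7.65, and 4 of 9 monocyte markers. Of the pathway genes, 7 of 15 immediate early genes were higher in LT-HSC and none lower (18.4% and 21.5% of all genes). Fosb had 9.33 and 9.55 against at most 2.97 in all arrays outside LT-HSC and the first monocyte array. Il1r1, the signalling receptor of interleukin-1, was higher in LT-HSC than in the other types by 3.13 ± 0.32 (adjusted p = 2.99e-06), and the feedback gene Tnip2 by 2.63 ± 0.35.

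Nucleated erythrocytes had the lowest mean levels of Nfkbia, Nfkbiz and Tnfaip3. Of the 10 genes 8 were lower than the other 9 types on average (36.7% of all genes) and 0 higher (18.5%, and 55.2% either way), with a median of -2.01 beside -0.54 over all genes. Nfkbiz differed by -5.25 ± 0.40, Tnfaip3 by -5.11 ± 0.84 and Nfkbia by -1.96 ± 0.21 (adjusted p = 8.16e-08, 0.000118 and 2.21e-06). The Nfkb2 call was lost on the mean of its probe sets (-0.53) and with quantile normalization (-0.81). The Il1r2 call was lost with array weights (limma adjusted p = 0.0921) and with no filter on dim genes (0.0632). The Il1rn difference was -0.84 on the mean of its probe sets, below the size needed for a call. All 4 tested IkB genes and all 3 subunit genes were lower as well. Erythrocyte means of Il1b (3.795), Il1rn (3.51) and Il1r2 (4.30) lay above those of NK cells (3.34, 3.125 and 2.53). The other 9 types include the high myeloid values. Of the neutrophil markers, the erythrocyte arrays held S100a8 at 14.19 and 15.26 and Ltf at 11.65 and 13.37. Clec4d had 5.18 and 7.59 there, against 14.39 and 13.99 in granulocyte arrays, and Cxcr2 2.73 and 2.72, against 7.26 and 6.93. Il1b had 3.37 and 4.22 and Cxcl2 2.67 and 2.70 in the erythrocyte arrays. The part of these markers in the levels of the 10 genes was not tested.

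**Figure D5:**
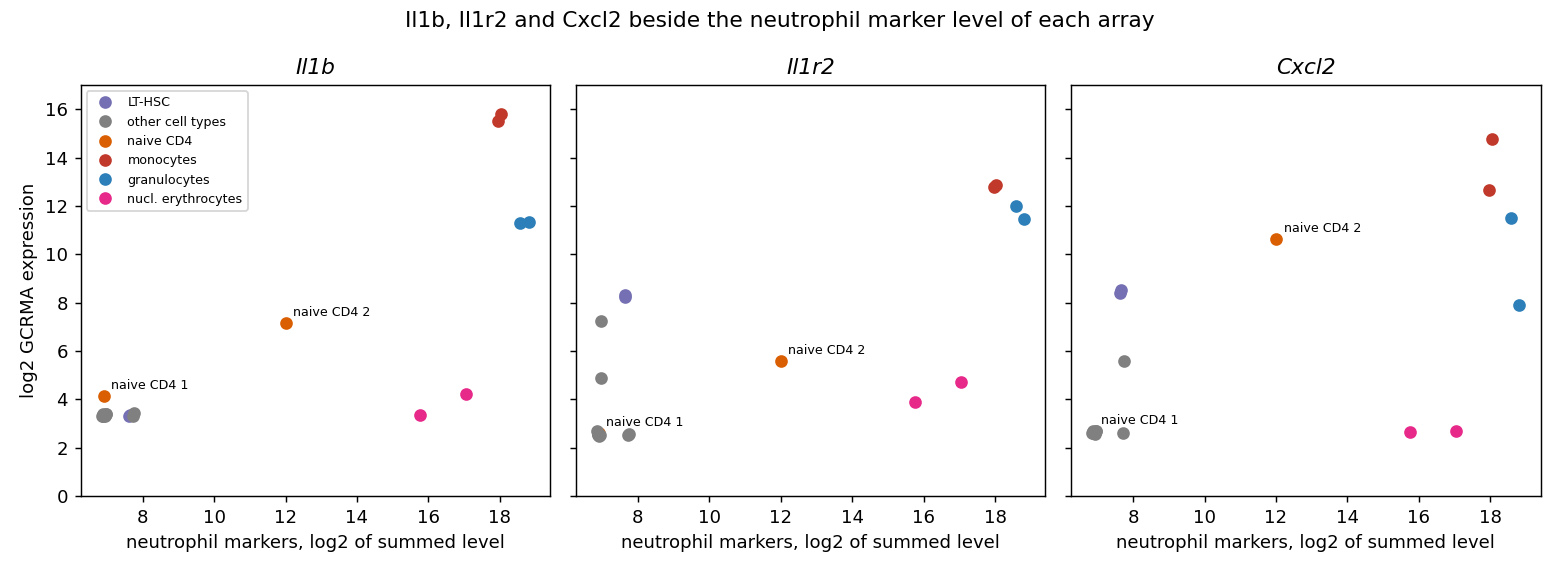
Log2 GCRMA expression of Il1b, Il1r2 and Cxcl2 (vertical axis) against the log2 of the summed level of 11 neutrophil markers (horizontal axis) in each of the 20 arrays, coloured by cell type. The second naive CD4 array, at 12.01, lies apart from the first, at 6.91, and the erythrocyte arrays, at 15.76 and 17.04, have Il1b below 5.

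The second naive CD4 array entered several comparisons above. The first array minus the second was -7.96 for Cxcl2, with 0.0204% of genes further apart, -2.99 for Il1b and -2.98 for Il1r2. In the same array S100a8 had 10.75 against 3.45 in the first, S100a9 10.68 against 3.05 and Clec4d 9.25 against 2.81, whereas Camp, Ltf, Mmp8, Cxcr2 and Itgb2l lay below 2.70 in both arrays. Markers of other lists were also raised in the second naive CD4 array, with Lyz2 at 9.32 against 5.09, Cd68 at 7.26 against 4.55 and Siglech at 6.94 against 4.89. Cd14 (1.65 against 1.66) and Itgam (2.53 against 2.55) were not. S100a8, S100a9 and Clec4d were high in the monocyte as well as the granulocyte arrays, so they do not name 1 cell type here. The second naive CD8 array had S100a8 at 6.49 against 3.32 in the first.

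Across the 10 cell type means, Il1b and Il1rn were the pair of the 10 genes with the highest correlation (Pearson r = 0.967, a description over 10 means that share arrays). The genes nearest to Il1b were Cd300c2 (r = 0.994), Osgin1 (0.994) and Sstr4 (0.992). Nearest to Il1rn were C5ar1 (0.998), Arg2 (0.998) and Fcgr4 (0.997), and nearest to Ptgs2 were Lrp1 (0.991), Cd14 (0.985) and Clec1a (0.983). Nfkb2 was nearest to Rel (0.983), Irf4 (0.971) and Pdia4 (0.946). For Il1r2 the nearest was Mfsd13a (0.977), for Cxcl2 Mitf (0.984), for Tnf Mtpn (0.936), for Nfkbia Washc4 (0.984), for Nfkbiz Ythdf3 (0.981) and for Tnfaip3 Slc2a1 (0.966).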

How the data were processed

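RNA of sorted cells was hybridised to Affymetrix mouse expression arrays, 2 for each of 10 cell types. The authors deposited log2 expression values for 45101 probe sets. Per the submitters' processing notes they were made with GCRMA, whose version is not given in the sources used here. Background correction and summarisation by GCRMA compress low values, so differences from values below 5 are uncertain in size. The deposited values were used without further normalization. Gene symbols came from the platform annotation (932 probe sets with several symbols and 9160 that the annotation table does not list were left out of gene tests, and the 64 control probe sets were not used), updated through Entrez gene IDs for 34741 of the 34945 probe sets. Each of 18193 genes was represented by its brightest probe set on average over all 20 arrays, of which 9010 have several.

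The model, which gives each cell type its own mean, was fitted with limma (version 3.58.1, R 4.3.3) to 9810 genes above 5 in at least 2 arrays, with 10 residual degrees of freedom, followed by empirical Bayes moderation and Benjamini-Hochberg adjustment over all tested genes. A gene was called at an adjusted p below 0.05 and a log2 difference of at least 1. All types shared 1 estimate of the spread per gene, so a gene with discordant monocyte arrays carries that spread into every comparison. The procedure was tested on simulated data. The number of arrays limits the precision.

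The 10 genes, 11 lists of pathway genes and the marker lists were chosen with earlier results of these data known. Named pathway genes are, per list and comparison, up to 2 called higher and 2 called lower with the largest size of difference, and the nearest genes are the 3 with the highest correlation to each of the 10. Alternatives covered the probe set rule, the filter, the normalization, array weights, the samples fitted, a replicate block and leaving out each array, and list counts without single monocyte or naive CD4 arrays were added after the data were seen. Promoter sequences are from RefSeq (GRCm38.p6).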

Additional observations from a re-analysis of the deposited data

How the results depend on the processing

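Of 100 differences (10 genes in 10 comparisons) 37 were called. Of these, 22 kept their call and direction in all settings in which the gene was tested, while 15 lost it in at least 1. Settings in which a gene did not pass the filter on low values were not counted. The 22 thus include Ptgs2 in monocytes against the non-myeloid types, which was not tested without the first monocyte array. Of the 63 not called, 20 were called in at least 1 other setting. With 2 arrays per type, 1 array decides many values. Leaving out single arrays gave 6 to 9 of the 10 genes called for monocytes against the non-myeloid types (8 with all arrays) and 4 to 7 for granulocytes (6). The range was 1 to 5 for monocytes against granulocytes (3), 2 to 4 for activated against naive CD4 cells (3) and 1 to 2 for CD8 cells (2). It was 0 to 1 for the difference between these effects (0), 5 to 7 for LT-HSC (6), 1 to 3 for B cells (1), 0 to 2 for NK cells (0) and 6 to 10 for nucleated erythrocytes (8). Tnfaip3 in monocytes against the non-myeloid types ran between -0.11, without the first monocyte array, and 4.41, without the second.

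The balance of higher and lower calls in activated CD4 cells (1 higher, 2 lower) turned to 3 higher and 2 lower with quantile normalization (5 called) and to 2 higher and 0 lower (2 called) in the fit of the compared groups alone or without the second naive CD4 array, the first activated CD4 array or both naive arrays numbered 2. For B cells it turned to 1 higher and 2 lower (3 called) without the first naive CD4 array. The fit of the compared groups alone gave 1 call for monocytes against granulocytes and 2 for B cells, array weights gave 3 for B cells, and leaving out both naive arrays numbered 1 gave 1 call for CD8 cells and 1 for the difference between the effects. The cause of these changes was not tested.

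Arrays of different types share a replicate number. The correlation of their differences between arrays 1 and 2 ran between -0.256 and 0.213 over 45 pairs of types, with 9 above 0.1, so the numbers were not taken as pairs. With the replicate block, 4 of the 10 genes were called in activated against naive CD4 cells, Il1r2 being added (1.99, adjusted p = 0.0475), and no other call of the 10 genes changed.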
